A study of Mus musculus with 6 samples.

Results

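The Ebf genes encode the early B-cell factor family of transcription factors, and all 4 mouse members, Ebf1, Ebf2, Ebf3 and Ebf4, were followed among the 55341 gene symbols counted in each library. They were chosen by name, with earlier results of these libraries known, because the count of Ebf3 was higher after GSK-126 than after DMSO. The GSK-126 to DMSO values of the 4 genes are for that reason given as a description, with no test. EBF proteins bind DNA as dimers at the palindrome TCCCNNGGGA through a conserved N-terminal domain that holds a zinc knuckle, a short loop in which 1 histidine and 3 cysteines hold a zinc ion. Ebf1 is best known for specifying B lymphocytes, and Ebf1, Ebf2 and Ebf3 act in overlapping fashion in newborn neurons, in olfactory sensory neurons, in fat cells and in stromal cells. In the cerebellum Ebf2 is known for the migration and subtype identity of Purkinje cells, whereas Ebf4 is the least studied member.

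Cultured cerebellar granule neurons (CGNs) of the mouse were profiled by RNA-seq in 6 libraries, 3 labelled DMSO, the vehicle, and 3 labelled GSK-126, an inhibitor of EZH2, the enzyme that trimethylates histone H3 at lysine 27 (H3K27me3). H3K27me3 marks genes that are kept silent, and the comparison asks which genes of young neurons depend on continued EZH2 activity. According to the study's methods, granule neuron precursors were isolated on a Percoll gradient from P6-P8 cerebella of CD1-IGS mice, AraC was added to all cultures at DIV2 to stop the division of non-neuronal cells, the inhibitor was added once, at DIV1 or DIV3, and cells were harvested at DIV5. The labels gave only the agent, the replicate number and cerebellum as the tissue, while the titles named CGNs and the extraction label spoke of tissue, so no label gives the dose or the day of addition. The names of the deposited tables carry a day code that no label explains, and it was not used here. A replicate in culture was a pool of neurons from the cerebella of litters, so the 3 values of a group are values of pools and not of single animals.

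Libraries held between 8058760 and 12047837 reads assigned to genes. The replicate numbers paired the libraries, since deviations from the group means correlated by 0.35, 0.50 and 0.52 across genes for libraries of the same number. For different numbers the values were -0.41 to -0.01. Deviations within a group sum to 0, so these negative values follow in part from the positive ones and are no separate evidence. All 12 granule neuron markers searched for were detected. Markers of other cell types were detected as well, among them all 9 astrocyte markers, whose summed level ran from 2687 to 8045 CPM (counts scaled by library size), and 12 of 13 mural cell and fibroblast markers passed the filter on low counts. In such bulk cultures fewer cells of a type and less RNA per cell cannot be told apart.

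The first question for a gene family is whether reads can be assigned to one member, and the sequences bear on it. The 4 stretches that encode the zinc knuckle are shown because this motif lies in the conserved DNA-binding domain. They come from the coding sequence of the longest coding transcript of each gene (GENCODE M21, GRCm38). They are printed 5′ to 3′, with the codons of the histidine and the 3 cysteines in capitals.
Ebf1: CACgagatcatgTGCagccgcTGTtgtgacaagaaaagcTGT
Ebf2: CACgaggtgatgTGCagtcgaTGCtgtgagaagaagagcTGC
Ebf3: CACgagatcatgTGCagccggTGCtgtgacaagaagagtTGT
Ebf4: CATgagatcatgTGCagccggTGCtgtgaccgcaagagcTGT
Over these 42 bases Ebf1 differed from Ebf3 at 4 positions, Ebf4 at 5 and Ebf2 at 7. Over the whole aligned coding sequence Ebf3 was 79.5% identical to Ebf1, 75.7% to Ebf2 and 71.3% to Ebf4. The longest run of identical bases between Ebf3 and a paralog was 27 bases, shared with Ebf4 from coding base 472 to 498 of Ebf3 counted from the A of ATG, which lies inside the zinc knuckle stretch. The runs shared with Ebf1 and Ebf2 were 24 and 23 bases. No window of 50 exon bases was common to any pair of Ebf genes, whereas the reads were 150 bases long, and multiply aligned reads were not assigned to genes. The counts of the 4 paralogs could thus be read as those of separate genes.

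On GRCm38, Ebf1 lies on chromosome 11 from 44617317 to 45008091 (plus strand, exon union 9756 bases), Ebf2 on chromosome 14 from 67233292 to 67430918 (plus strand, 6928 bases), Ebf3 on chromosome 7 from 137193673 to 137314445 (minus strand, 9227 bases) and Ebf4 on chromosome 2 from 130295169 to 130370481 (plus strand, 3236 bases). Each has 17 exons once the exons of its transcripts are merged. A gene on the opposite strand overlapped 3.85% of the exon bases of Ebf3 and 6.12% of those of Ebf2, and none of those of Ebf1 and Ebf4.

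The starts of the genes differed in base composition. RefSeq promoter windows (GRCm38.p6, from 250 bases before to 50 bases after an annotated start) were matched by symbol for 3 of the 4 genes (all but Ebf2), with 2 starts for Ebf1 and 1 each for Ebf3 and Ebf4. They are shown because CpG-dense starts are the usual sites of H3K27me3, with every CpG in capitals, 5′ to 3′ on the strand of the gene.
Ebf3, chr7:137314396-137314695, minus strand: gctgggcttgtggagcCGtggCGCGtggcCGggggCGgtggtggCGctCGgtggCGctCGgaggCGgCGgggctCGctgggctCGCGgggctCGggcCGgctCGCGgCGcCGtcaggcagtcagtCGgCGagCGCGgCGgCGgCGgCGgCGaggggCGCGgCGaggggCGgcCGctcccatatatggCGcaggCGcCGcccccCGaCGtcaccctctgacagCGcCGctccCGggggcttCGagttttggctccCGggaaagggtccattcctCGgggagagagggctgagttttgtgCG
Ebf4, chr2:130295689-130295988, plus strand: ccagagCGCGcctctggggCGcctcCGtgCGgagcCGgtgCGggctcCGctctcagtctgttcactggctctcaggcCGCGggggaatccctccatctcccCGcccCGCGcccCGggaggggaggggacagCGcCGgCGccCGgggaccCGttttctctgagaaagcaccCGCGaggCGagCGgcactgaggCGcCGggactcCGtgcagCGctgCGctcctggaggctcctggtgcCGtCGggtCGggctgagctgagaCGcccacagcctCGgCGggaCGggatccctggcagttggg
Ebf1, first start, chr11:44617850-44618149, plus strand: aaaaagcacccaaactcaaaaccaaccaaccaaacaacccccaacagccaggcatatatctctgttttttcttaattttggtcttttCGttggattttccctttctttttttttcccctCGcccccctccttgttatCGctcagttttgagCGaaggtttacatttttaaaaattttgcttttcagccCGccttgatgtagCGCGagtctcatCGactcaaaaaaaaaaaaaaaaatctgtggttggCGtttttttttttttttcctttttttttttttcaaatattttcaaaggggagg
Ebf1, second start, chr11:44619978-44620277, plus strand: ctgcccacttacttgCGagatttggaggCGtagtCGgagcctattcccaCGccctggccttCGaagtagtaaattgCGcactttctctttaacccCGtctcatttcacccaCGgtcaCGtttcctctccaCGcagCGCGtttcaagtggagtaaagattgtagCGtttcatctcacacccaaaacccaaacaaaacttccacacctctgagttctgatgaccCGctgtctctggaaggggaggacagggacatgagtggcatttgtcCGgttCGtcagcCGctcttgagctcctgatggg
The Ebf3 window held 46 CpGs at 77% GC, more CpGs than 98.4% of the 32851 windows of the table, whose median was 7 CpGs and 52.7% GC. Ebf4 followed with 35 CpGs at 74.3% GC, above 93.0% of windows. The starts of Ebf1 held 9 and 17 CpGs at 36.7% and 53% GC. The full EBF palindrome TCCCNNGGGA, which reads the same on both strands, was found in none of the 4 windows and in 0.904% of all windows. The core CCCNNGGG, which every full palindrome contains, occurred once in the Ebf3 window and in 13.7% of all windows, and a CArG box, the site of serum response factor, occurred once in the Ebf3 window and in 1.63% of all windows. These letters are a description of the windows and no evidence of binding.

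Ebf3 was the member whose level differed between the groups. It had counts of 55, 40 and 48 in DMSO replicates 1, 2 and 3 and of 169, 143 and 116 in GSK-126 replicates 1, 2 and 3. As CPM scaled with TMM factors these were 6.34, 5.0 and 5.67 in DMSO and 14.1, 17.2 and 13.2 in GSK-126, means of 5.67 ± 0.672 and 14.8 ± 2.12 (SD, n = 3 each). All 3 GSK-126 libraries lay above all 3 DMSO libraries, as they did for 5.43% of the 16343 genes that passed the filter. The fitted log2 fold change was 1.38 (SE 0.233) without a term for the replicate number and 1.38 (SE 0.232) with it, 2.60-fold, the 53rd highest of 16343 genes with that term. These are the values that chose the gene.

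Ebf1, the member with the highest counts, had 375, 385 and 352 in DMSO and 404, 412 and 323 in GSK-126. Its CPM were 43.3, 48.1 and 41.6 (mean 44.3 ± 3.40) against 33.6, 49.6 and 36.8 (mean 40.0 ± 8.48). The groups overlapped, with GSK-126 replicate 2 the highest and GSK-126 replicate 1 the lowest of all 6 libraries, and the log2 fold change was -0.16 (SE 0.134) with the replicate term. Ebf4 had counts of 113, 92 and 61 in DMSO and 115, 94 and 89 in GSK-126, and CPM of 13.04, 11.5 and 7.21 (mean 10.6 ± 3.02) against 9.58, 11.3 and 10.1 (mean 10.3 ± 0.893). The 3 GSK-126 values lay within the range of the DMSO values, at a log2 fold change of -0.01 (SE 0.238). The wider spread of Ebf4 in DMSO came from replicate 3, its lowest library.

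Ebf2, the Purkinje cell factor, was near the limit of this depth. Its counts were 30, 20 and 25 in DMSO and 50, 13 and 22 in GSK-126, or CPM of 3.46, 2.50 and 2.95 (mean 2.97 ± 0.480) against 4.16, 1.57 and 2.51 (mean 2.75 ± 1.32). The GSK-126 libraries held both the highest and the lowest value, and the log2 fold change was -0.17 (SE 0.399). The exact 95% Poisson interval of its lowest count, 13, ran from 6.92 to 22.2, and that of its highest, 50, from 37.1 to 65.9. These intervals cover counting error only and not the variation between cultures. The reads carried no molecular identifiers, so repeat copies of 1 molecule were not told apart. A change of Ebf2 smaller than the spread between libraries was not detectable here.

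**Figure D1:**
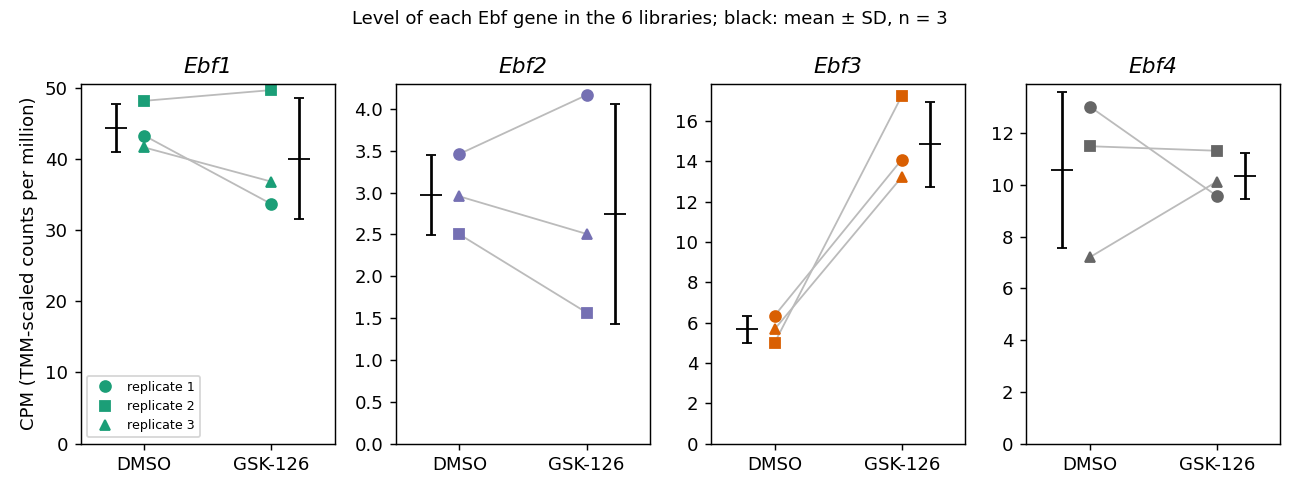
Level of each Ebf gene (CPM with TMM factors, linear axis from 0, a scale of its own per gene) in the 3 DMSO and 3 GSK-126 libraries; symbols mark replicate numbers, grey lines join libraries of the same number, and black bars give mean ± SD. For Ebf3 the GSK-126 libraries sit between 13.2 and 17.2 and the DMSO libraries between 5.0 and 6.34, whereas the groups overlap for the other members.

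Within the replicate pairs, Ebf3 was higher in 3 of 3, with log2 ratios of 1.12, 1.74 and 1.19 for pairs 1, 2 and 3. Each paralog was higher in 1 of 3 pairs, and in a different one: Ebf2 in pair 1 (0.25, against -0.61 and -0.22), Ebf1 in pair 2 (0.04, against -0.36 and -0.18) and Ebf4 in pair 3 (0.48, against -0.44 and -0.02). The mean log2 ratio of the 3 paralogs was -0.18, -0.19 and 0.03 in the 3 pairs, so Ebf3 exceeded its paralogs by 1.30, 1.94 and 1.16, a mean of 1.47 ± 0.412 (SD over 3 pairs). Pair 2 gave both the largest Ebf3 ratio and the largest distance between Ebf3 and Ebf2, whose count of 13 in GSK-126 replicate 2 was its lowest.

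**Figure D2:**
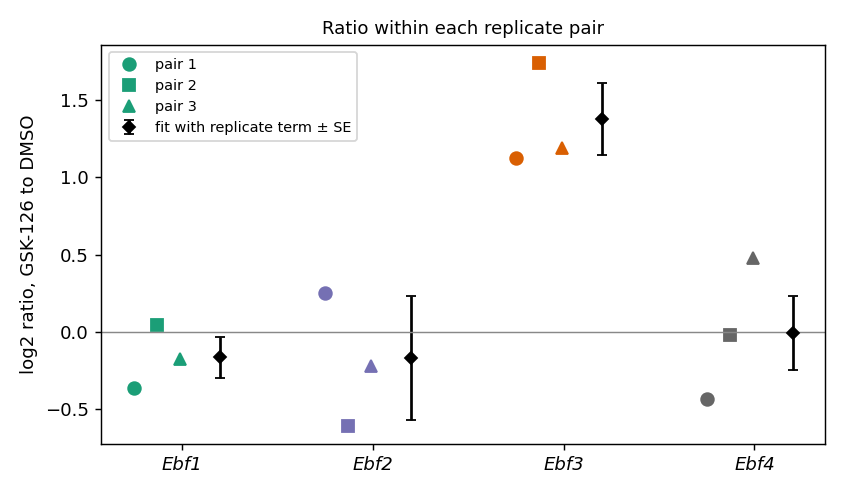
Log2 ratio of GSK-126 to DMSO for each Ebf gene in each replicate pair (coloured symbols) and the edgeR estimate with the replicate number as a term (black diamonds, ± SE). The 3 ratios of Ebf3 lie between 1.12 and 1.74, and those of the paralogs lie between -0.61 and 0.48, on both sides of 0 for each paralog.

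Across all genes, edgeR's quasi-likelihood test with Benjamini-Hochberg adjustment called 0 of the 16343 genes at an adjusted p-value of 0.05 without the replicate term (0% in either direction), with 981 genes at an unadjusted p under 0.05. On the same comparison limma-voom called 0, and DESeq2 called 46 genes higher and 13 lower. With the replicate term edgeR called 365 genes higher (2.23%) and 232 lower (1.42%). The 4 Ebf genes were picked on this contrast, so no call on them is given.

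Per length of transcript the 4 genes stood in the same order in both groups. As TPM (counts divided by exon-union length and scaled to a fixed sum per library), the DMSO libraries held 16.5 ± 1.39 of Ebf1, 11.9 ± 3.62 of Ebf4, 2.23 ± 0.293 of Ebf3 and 1.56 ± 0.273 of Ebf2. Ebf1 at 15.1 to 17.9 lay above Ebf4 at 7.90 to 14.9, and Ebf3 at 1.97 to 2.55 lay just above Ebf2 at 1.31 to 1.85, with no overlap between neighbours in this order. With GSK-126 the levels were 14.2 ± 3.24 for Ebf1, 11.03 ± 1.13 for Ebf4, 5.55 ± 0.880 for Ebf3 and 1.36 ± 0.635 for Ebf2. There the ranges of Ebf1 (11.7 to 17.9) and Ebf4 (10.1 to 12.3) overlapped, and Ebf3 (4.91 to 6.55) was clear of both Ebf4 and Ebf2 (0.793 to 2.05). With the length of the longest transcript in place of the exon union the DMSO means were 21.2, 10.2, 3.26 and 1.64 TPM for Ebf1, Ebf4, Ebf3 and Ebf2, in the same order.

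The share of Ebf3 in the summed TPM of the family was 7.13%, 5.77% and 8.16% in DMSO replicates 1, 2 and 3, and 17.9%, 17.5% and 16.5% in GSK-126 replicates 1, 2 and 3. The family as a whole moved little next to its spread, from 63.6 ± 5.33 to 68.0 ± 10.2 CPM. Without Ebf3 the other 3 genes summed to 57.9 ± 5.44 CPM in DMSO and 53.1 ± 8.22 CPM in GSK-126, with overlapping groups. Ebf1 remained the most abundant member in every library, at 40.4% to 56.6% of the family TPM.

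**Figure D3:**
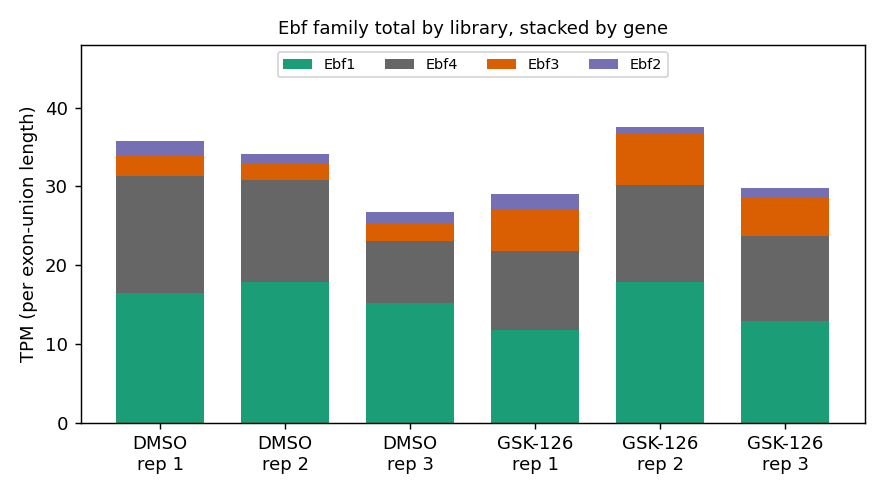
Summed TPM of the Ebf family per library, stacked by gene (exon-union lengths, axis from 0). Ebf1 and Ebf4 make up most of each bar, and the Ebf3 segment takes 5.77% to 8.16% of the bar in DMSO and 16.5% to 17.9% in GSK-126.

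The gene most entangled with Ebf3 was Gm45278, an annotated antisense gene of 2 exons on the plus strand (chromosome 7, from 137198488 to 137201722) that lies wholly within Ebf3. Of its 2414 exon bases, 355 faced coding exons of Ebf3 and the other 2059 (85.3%) faced introns. Its counts were 9, 3 and 11 in DMSO and 47, 43 and 13 in GSK-126, or 0.904 ± 0.477 against 3.53 ± 1.88 CPM. All 3 GSK-126 libraries lay above all 3 DMSO libraries, as for 5.43% of the genes that passed the filter, with replicate 3 the lowest of its group. The log2 fold change was 1.84 (SE 0.608) with the replicate term, and it was not called by edgeR (adjusted p = 0.146, and 0.806 without the term). Whether the counting used strand is not given in the sources used here, so reads from Gm45278 and from the Ebf3 strand, introns included, cannot be told apart. The antisense gene at Ebf2, Gm10860, had 5, 6 and 6 counts in DMSO and 12, 4 and 6 in GSK-126, with GSK-126 replicate 1 the highest, as for Ebf2 itself.

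Around Ebf3, 20 other genes start within 1 Mb, of which 5 passed the filter, and 0 were called with or without the replicate term. Among those that passed, the nearest on the upstream side was 9430038I01Rik, a log2 fold change of -0.69 (SE 0.359, adjusted p = 0.374, edgeR with the replicate term), lower in all 3 pairs at 4.61 ± 0.772 against 2.87 ± 0.832 CPM. It was followed by Glrx3, a glutaredoxin, at 0.24 (SE 0.107, adjusted p = 0.283). Downstream and beyond Gm45278 came Mgmt, the DNA repair methyltransferase, at 0.30 (SE 0.301, adjusted p = 0.690). Near the other members, 5 of 21 genes within 1 Mb passed the filter at Ebf1. At Ebf2 it was 15 of 40 and at Ebf4 36 of 74. With the replicate term, where 2.23% of all genes were called higher and 1.42% lower, 1 of these was called. That gene was Nefl, the neurofilament light chain, 851 kb downstream of the start of Ebf2, which fell by 0.54 on the log2 scale (SE 0.105, adjusted p = 0.0176, edgeR with the replicate term) from 135.5 ± 50.3 to 94.0 ± 38.7 CPM.

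**Figure D4:**
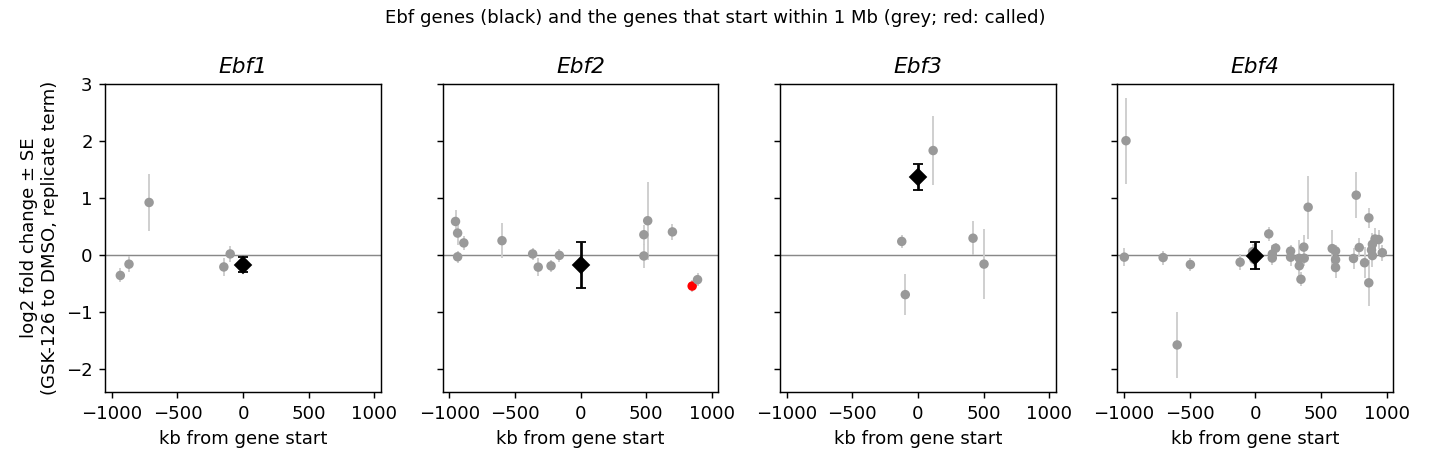
Log2 fold change (± SE, edgeR with the replicate term) of each Ebf gene (black diamond at 0 kb) and of the genes that start within 1 Mb and passed the filter (grey, called in red) against the distance of their start from the start of the Ebf gene, positive in the direction of transcription. Among the neighbours of Ebf3, itself at 1.38, the only point as high is its antisense gene Gm45278 at 1.84 with an SE of 0.608. Near Ebf4, Il1a with 0 to 36 counts per library lies at 2.01 with an SE of 0.756 and was not called. The only called neighbour of any member is Nefl near Ebf2.

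Genes with which EBF proteins are known to act were then listed by role. The calls in each list stand beside 2.23% of all genes called higher and 1.42% lower with the replicate term. Of 11 partner proteins, all passed the filter and 0 were called with or without the replicate term, with a median log2 fold change of 0.03 with the term beside a median of -0.00 over all genes. The zinc finger proteins Zfp423 and Zfp521, which bind EBF proteins and inhibit them, were at 0.04 (SE 0.120) and -0.36 (SE 0.116, adjusted p = 0.133, edgeR with the replicate term). Zfp521 was lower in all 3 pairs, at 239.7 ± 15.8 against 188.3 ± 31.7 CPM. Runx1, which acts with Ebf1 on B-cell genes and is also a microglial and stromal factor, had counts of 110, 97 and 141 in DMSO and of 296, 150 and 222 in GSK-126, and its log2 fold change of 0.71 (SE 0.176) missed the threshold with the replicate term (adjusted p = 0.0502, edgeR).

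Of 8 regulators known to act on Ebf genes during neurogenesis, 5 passed the filter and 0 were called with or without the term (median 0.10 with it). The proneural factor Neurog1 was at 0 in all libraries. Of 8 neural genes that depend on Ebf factors in other systems 6 passed the filter, with a median of -0.32. Neurod1, a proneural factor that CGNs themselves use, was the 1 gene called, and it fell by 0.58 (SE 0.121, adjusted p = 0.0265, edgeR with the replicate term), from 708.4 ± 115 to 490.2 ± 172 CPM. Nefm, the neurofilament medium chain, was at -0.43 (SE 0.113, adjusted p = 0.0642), and Epha4, an ephrin receptor, at 0.61 (SE 0.160, adjusted p = 0.0652). Nhlh1 was at -0.75 (SE 0.421), Stmn2 at -0.22 (SE 0.104) and Cdh8 at -0.21 (SE 0.143). Of the 6 genes 5 were thus below 0 and 1, Epha4, was above.

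Lists from other tissues in which EBF proteins act were detected in part. Of 5 genes of olfactory neurons controlled through the EBF site 3 passed the filter and 0 were called (median -0.15). Of 11 B-cell targets of EBF1, 3 passed the filter, and Blk and Pou2af1 were among those at 0 in every library. Cd53, a tetraspanin of leukocytes, was called and rose by 0.62 (SE 0.120, adjusted p = 0.0181, edgeR with the replicate term), from 46.9 ± 13.7 to 71.5 ± 18.7 CPM. The summed level of 8 microglia markers ran from 237.9 to 393.8 CPM in DMSO and from 281.6 to 606.7 CPM in GSK-126, and 1 of them, the complement gene C1qb, was called higher at 0.73 (list median 0.27). The part of microglia in the Cd53 value was not tested. Of 6 adipocyte targets 4 passed the filter and 0 were called, with a median of 0.55.

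A wider list was taken from sequence alone. The full palindrome TCCCNNGGGA was found in a promoter window of 237 genes of the tables, of which 146 passed the filter. With the replicate term 8 of them were called higher and 3 lower, 5.48% and 2.05% of 146 beside 2.23% and 1.42% of all genes, and their median log2 fold change was -0.00, as over all genes. Those with the largest changes were Hs3st4, a heparan sulfate sulfotransferase, at 1.26 (SE 0.272), 1700003F12Rik at -1.19 (SE 0.278), Tinagl1, a matrix glycoprotein, at 0.99 (SE 0.204), Rreb1, a zinc finger factor, at 0.62 (SE 0.150) and Cadm3, a synaptic adhesion molecule, at -0.59 (SE 0.0995), with adjusted p-values from 0.0104 to 0.0469 (edgeR with the replicate term). Without replicate number 2 the calls in this list ranged down to 1, which was Tinagl1. A palindrome in a window is no evidence that an EBF protein binds there.

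Ebf genes are expressed in several cell types that such cultures can hold, so marker lists were set beside Ebf3. Over all genes the fit with the replicate term called 2.23% higher and 1.42% lower. Of 12 mural cell and fibroblast markers that passed the filter, 4 were called higher with the replicate term, namely Pdgfrb, the receptor of pericytes (0.63), the contractile genes Acta2 (0.67) and Tagln (0.74) and the collagen gene Col1a1 (0.46). Their list had a median of 0.34, with 11 log2 fold changes above 0 and 1 below. Its summed level was 7392, 7713 and 9923 CPM in DMSO and 11121, 10034 and 11340 CPM in GSK-126, without overlap. Single genes lay higher without overlap in 5.43% of cases. Most of the sum was collagen, with Col1a1, Col3a1 and Col1a2 at means of 2607, 2355 and 2149 CPM in DMSO beside 8343 CPM for the list. Of the mural cell markers not called, Rgs5 was at 0.62, Vtn at 0.29, Notch3 at 0.27 and Abcc9 at -0.15. The log2 fold change of Ebf3 was 1.38. Of 6 endothelial markers that passed the filter Flt1, a VEGF receptor, was called higher at 1.33, with a list median of 0.18. Of the 6, 3 were above 0 and 3 below, among them Cdh5 at -0.30 and Emcn at -0.44, both lower in all 3 pairs. Summed levels were 63.8 to 91.9 CPM in DMSO and 69.9 to 88.3 CPM in GSK-126. Of 10 oligodendrocyte lineage markers Cspg4, of precursors and pericytes, was called higher at 0.89 (list median 0.17, 6 above 0 and 4 below). Of 9 astrocyte markers Gdf10 was called higher at 0.94, with a list median of 0.04. The list had 5 values above 0 and 4 below, among them Aqp4 (-0.21), Slc1a3 (-0.23) and Fabp7 (-0.37), each lower in all 3 pairs and not called. The part of mural cells and fibroblasts in the Ebf3 value was not tested.

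Markers of Purkinje cells, the cerebellar neurons best known for Ebf2, gave no such difference. Of 12 Purkinje cell markers 10 passed the filter and 0 were called with or without the replicate term, with a median of 0.13, and their summed level was 325.2 to 416.7 CPM in DMSO and 349.8 to 373.3 CPM in GSK-126. Rora and Gad1 made up the larger part of that sum, at means of 142.0 and 123.4 CPM in DMSO beside 368.6 CPM for the list. The Purkinje cell regulator Skor2 was at 0 in every library, and Car8 did not pass the filter. Pcp2 had 14 to 25 counts per library and Pcp4 4 to 18, whereas Calb1 had 73 to 168. At such counts a difference in Purkinje cells could be missed. Of 6 markers of unipolar brush cells the regulator Eomes was called lower, at -1.12 (list median -0.14). The list had 5 log2 fold changes below 0 and 1 above. The 1 above was Lmx1a, at 1.18 (SE 0.530), higher in all 3 pairs at low counts and not called.

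Markers of the granule neuron lineage differed between the groups as well. Of 12 markers of granule neurons 6 were called lower and 0 higher with the replicate term, with a median of -0.45. The 6 were the vesicular glutamate transporter Slc17a7 (-2.16), the cerebellins Cbln3 (-1.45) and Cbln1 (-0.53), the receptor subunit Gabra6 (-1.42), the factor Etv1 (-1.06) and Neurod1 (-0.58). In all, 9 of the 12 were below 0 and 3 above, namely Barhl1 (0.39, higher in all 3 pairs), Pax6 (0.04) and Neurod2 (0.004). Barhl1 is also in the precursor list. The summed level of the 12 overlapped between the groups, from 5142 to 7036 CPM in DMSO and from 3631 to 5755 CPM in GSK-126, and was lower with GSK-126 in each pair. Of 10 markers of granule neuron precursors 8 passed the filter and Ccnd2 and Mycn, both genes of dividing precursors, were called higher (0.91 and 0.95). The list median was 0.34, with 6 log2 fold changes above 0 and 2 below. Summed levels were 655.0 to 843.8 CPM in DMSO and 853.3 to 1159 CPM in GSK-126, higher without overlap, as in 5.43% of single genes. Ccnd2 made up the larger part of that difference, and without it the list summed to 469.2 to 529.4 CPM in DMSO and 557.6 to 595.8 CPM in GSK-126. Defining precursor genes were near 0 or were not called. Atoh1, the factor that specifies precursors, had at most 6 counts and Gli1, a target of Sonic hedgehog, at most 7 in any library, while the hedgehog receptor Ptch1 was lower in all 3 pairs at -0.30 (SE 0.104, adjusted p = 0.164, edgeR with the replicate term) and Gli2 was at -0.09 (SE 0.216). Whether Ebf3 transcripts came from the same cells as these markers was not tested.

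**Figure D5:**
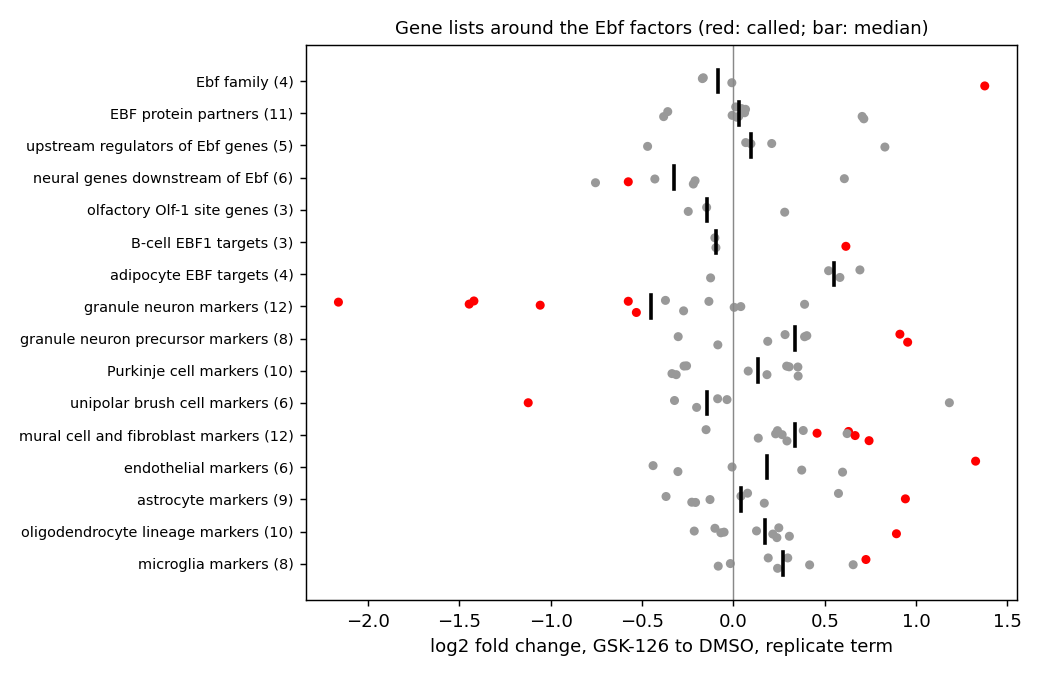
Log2 fold change (GSK-126 to DMSO, edgeR with the replicate term) of every gene that passed the filter in the Ebf family and in each list of partners, regulators, targets and cell type markers, with the number of genes in brackets; red points were called and black bars are list medians. The colour of the Ebf points is not read, because these genes were picked on this contrast. Ebf3 is the highest point of all lists at 1.38, granule neuron markers reach down to -2.16, and the medians of precursor and of mural cell and fibroblast markers are 0.34 each.

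The genes whose levels ran most like Ebf3 over the 6 libraries, by Pearson's correlation of log2 CPM, were Mycbpap (r = 0.998), BC030867 (0.991), Hsd17b7 (0.989), Xylt1 (0.984) and Fam50a (0.983), and 146 genes had r above 0.9. Because Ebf3 separates the groups, such genes share its split between DMSO and GSK-126. Hsd17b7, an enzyme of cholesterol synthesis, was the 1 of the 5 that was called, and it rose by 0.68 (SE 0.141, adjusted p = 0.0257, edgeR with the replicate term) from 29.9 ± 2.93 to 47.7 ± 3.26 CPM. Mycbpap had only 8 to 23 counts per library. For Ebf1, the most abundant member, the genes most alike were Rnf14 (0.998), Ppfia2 (0.997), Nkrf (0.997), S100pbp (0.996) and Fam155a (0.995), and 720 genes had r above 0.9. No gene was named for both.

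The genes named as called with the replicate term, 20 in all besides those of the palindrome list, were not called without it by edgeR on the filtered genes or by limma-voom. With no filter on low counts and no term edgeR called 6 of them, Etv1, Cbln3, Gabra6, Slc17a7, Ccnd2 and Flt1, and DESeq2 without the term called Flt1. For 13 of the 20 the call was lost when a replicate number was left out of the fit with the term. Without replicate number 2 the adjusted p of Neurod1, Cd53, Cbln1, Mycn, Eomes, Acta2, Col1a1, Flt1, Gdf10, Cspg4, Nefl and Hsd17b7 ran from 0.0501 to 0.244. Without replicate number 1 it was 0.0546 to 0.187 for Mycn, Eomes, Col1a1, Gdf10 and C1qb, and without replicate number 3 it was 0.0514 to 0.169 for Cd53, Cbln1, Nefl and Hsd17b7. Tagln was not called by DESeq2 with the term (adjusted p = 0.159). The direction of all 20 was the same in each of the 18 fits run.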

How the data were processed

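Poly(A) RNA of 6 CGN libraries was sequenced as paired 150-base reads. The authors trimmed reads with Trimmomatic 0.38, aligned them with STAR 2.7.2b to mm10 and counted reads over exons with HTSeq, as the study's methods and the submitters' processing notes state. The deposited values are whole-number counts per gene symbol, not normalized, 1 table per library, and 114 of 55341 symbols pool more than 1 gene ID. Fragments assigned to a gene made up 39.1% to 41.6%, and summary rows without a gene were dropped.

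The members, gene lists and tests were chosen with earlier results of these data known. After filterByExpr, which kept 16343 genes and all 4 members, and TMM scaling, GSK-126 was compared with DMSO by edgeR 4.0.16 (quasi-likelihood F test, R 4.3.3), with Benjamini-Hochberg adjustment over all genes and a threshold of 0.05. Treatment was the only term of the main model. The replicate number was added as a block, since replicates were separate litter pools and the numbers paired the libraries, and both fits are given where the call differs. Alternatives used DESeq2 1.42.0 and limma 3.58.1. Pair ratios are differences of log2 CPM with a prior count of 2. TPM used GENCODE M21 exon lengths. Named by rule were called list members (at most 5 per list, by size of change), neighbours within 1 Mb and the 5 genes most correlated with Ebf3 and Ebf1. The sixth granule neuron marker and list members below the threshold were named after their values were seen. Scripts were tested on simulated data.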

Additional observations from a re-analysis of the deposited data

How the results depend on the processing

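With the replicate number as a block edgeR called 365 genes higher and 232 lower in place of 0, and DESeq2 with the block called 408 and 262. DESeq2 without the block called 46 and 13, and edgeR with no filter on low counts 55 and 30. The same without the filter but with the block, an alternative chosen after seeing the data, called 708 and 428. With the block and each replicate number left out in turn, edgeR called 396, 125 and 211 genes higher and 308, 53 and 148 lower without replicate numbers 1, 2 and 3, and leaving out any single library without the block gave 0 calls. The cause of these differences was not tested. The distance of Ebf3 from the mean of its paralogs, 1.48 on the log2 scale, stayed between 1.26 and 1.64 over 17 alternatives, and Ebf3 itself between 1.20 and 1.497. All 17 draw on the 6 libraries in which Ebf3 was picked, so these ranges describe the processing and lend the difference no support. Ebf2 was positive in 3 and negative in 14 (-0.54 without GSK-126 replicate 1) and Ebf4 positive in 6 and negative in 11. Ebf1 was negative in all 17, but these fits draw on the same 6 libraries. Its log2 fold change was -0.16 (SE 0.134) with the block, and pair 2 was at 0.04. None of the paralogs thus has a direction here. With 13 to 50 counts of Ebf2 per library, depth limits that gene most.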
